A study of Mus musculus with 10 samples.

Results

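The miRNAs described here are those of the miR-199 and miR-214 family, taken as every row of the deposited table whose name begins with mmu-miR-199a-, mmu-miR-199b- or mmu-miR-214-. The rule found 6 of 733 rows: mmu-miR-199a-3p, mmu-miR-199b-3p, mmu-miR-199a-5p, mmu-miR-199b-5p, mmu-miR-214-3p and mmu-miR-214-5p. After the first pair, which have 1 mature sequence, were summed into miR-199-3p, 5 remained. The table comes from small RNA sequencing of small extracellular vesicles, membrane particles released by cells, that were prepared from digested mouse heart. The mice were male C57BL/6J, with 5 libraries of the treatment HFD plus L-NAME and 5 libraries of chow diet as control. In HFD, 60% was fat, and L-NAME, which blocks nitric oxide synthesis, was dissolved in drinking water at 0.5 g/L. The regimen began at 8 weeks of age and went on for 12 weeks, both recorded for the HFD plus L-NAME libraries only. It serves as a mouse model of HFpEF, heart failure in which the ejection fraction is preserved. All cells of the digested heart could contribute vesicles. A different contribution of a cell type and a different amount of a miRNA per cell or per vesicle therefore cannot be told apart. Whether the libraries come from separate animals is not stated in the labels, so each p-value is set against a spread between libraries that may be technical.

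The family is known from mesenchymal cells. Mir199a-2 and Mir214 are carried on Dnm3os, a long non-coding RNA transcribed antisense to Dnm3 and needed for normal skeletal growth in mice, while Mir199b lies antisense in Dnm1 and Mir199a-1 antisense in Dnm2. Expression of Dnm3os is a feature of fibroblasts and of other mesenchymal cells, and it is known to increase in fibrosis. Each hairpin precursor yields a mature miRNA from its 5p arm and another from its 3p arm, and bases 2 to 8 of a mature miRNA, the seed, pair with target mRNAs.

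The mature sequences are shown because the 3p of miR-199 is 1 sequence counted under 2 names, which decides how the counts can be read. They come from RefSeq on GRCm38.p6, in which 5 of the 6 rows had a mature sequence, and capitals mark the seed:
miR-199a-3p and miR-199b-3p: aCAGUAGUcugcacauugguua
miR-199a-5p: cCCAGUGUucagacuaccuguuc
miR-214-3p: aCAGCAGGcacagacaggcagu
miR-214-5p: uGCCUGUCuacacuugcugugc
The seeds of miR-199-3p and miR-214-3p were identical at 5 of 7 bases and differed by U5C and U8G, counted from the 5′ end of the mature miRNA with the miR-199-3p base first. Among the RefSeq mouse miRNAs 1 other, miR-761, had the seed of a member, that of miR-214-3p, and it had no row among those analysed here.

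The hairpins are shown because they place the arms beside each other and show which of them the genome holds more than once. Capitals mark the mature sequences listed above, and coordinates are on GRCm38.p6:
Mir199a-1, chr9:21496495-21496564, minus strand: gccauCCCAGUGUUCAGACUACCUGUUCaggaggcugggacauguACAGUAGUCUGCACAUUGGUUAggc
Mir199a-2, chr1:162217814-162217923, plus strand: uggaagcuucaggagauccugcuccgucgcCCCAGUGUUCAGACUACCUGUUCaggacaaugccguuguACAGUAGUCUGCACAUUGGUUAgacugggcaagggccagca
Mir199b, chr2:32318460-32318569, plus strand: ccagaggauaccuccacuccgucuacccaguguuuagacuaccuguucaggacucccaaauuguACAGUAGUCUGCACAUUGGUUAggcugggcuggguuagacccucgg
Mir214, chr1:162223368-162223477, plus strand: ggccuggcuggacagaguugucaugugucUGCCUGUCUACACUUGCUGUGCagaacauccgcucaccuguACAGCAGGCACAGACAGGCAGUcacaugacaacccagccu
In GENCODE M21 the Mir199a-2 and Mir214 hairpins overlap exons of Dnm3os on the same strand, 5444 bases apart, and both lie within an intron of Dnm3 on the opposite strand. The hairpins Mir199a-1 and Mir199b lie in introns of Dnm2 and Dnm1, each on the opposite strand. The 3p sequence occurs in 3 hairpins and miR-199a-5p in 2, so the counts cannot be divided between these loci. The best ungapped match of miR-199a-5p in the Mir199b hairpin was identical at 22 of 23 bases, with C10U counted from the 5′ end of miR-199a-5p. The separate counts of miR-199a-5p and miR-199b-5p are uncertain to the extent that the authors' counting could split reads between them.

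Libraries held 250807 to 338530 miRNA counts in HFD plus L-NAME and 238434 to 420828 in control, and a count of 0 allowed levels of up to 7.13 to 12.6 CPM (miRNA counts set to a common library total), depending on the library. All other CPM values below were scaled with TMM, edgeR's correction of library totals. Intervals and such limits cover counting error only. The cardiomyocyte miRNA miR-1a-3p took 33.9% ± 6.17 of miRNA counts in HFD plus L-NAME and 24.6% ± 4.10 in control (SD, n = 5 each), which bears on all shares given below. The 4 cardiomyocyte markers were split, 2 with higher and 2 with lower values, and their summed level was 288143 to 470534 CPM in HFD plus L-NAME and 227120 to 346516 CPM in control. Summed smooth muscle markers (2 miRNAs) were at 29336 to 40193 CPM in HFD plus L-NAME and 42508 to 68682 CPM in control, without overlap. Most of that sum was miR-143-3p, with 33838 ± 4986 CPM in HFD plus L-NAME and 47414 ± 11308 CPM in control (SD, n = 5 each) and a log2 difference of -0.49, while that of miR-145a-5p was 0.25. Of all miRNAs tested 5.68% had no overlap of CPM between the groups in either direction, miR-143-3p among them. Summed endothelial markers (2 miRNAs) were at 40151 to 76080 CPM in HFD plus L-NAME and 61195 to 81583 CPM in control. Red blood cell markers (4 miRNAs) were at 9222 to 26452 CPM in HFD plus L-NAME and 17165 to 53976 CPM in control, and leukocyte markers (4 miRNAs) were at 657 to 1016 CPM in HFD plus L-NAME and 795 to 1471 CPM in control. The tested members of these lists were mixed in direction, with 1 higher and 1 lower for smooth muscle and for endothelium, 1 higher and 3 lower for red blood cells and 1 higher and 2 lower for leukocytes. The higher one for red blood cells was miR-486a-5p (log2 difference 0.57 ± 0.88, SE), while miR-486b-5p was among the lower ones (-1.25 ± 0.47). Whether reads were divided between these similar names differently in each library was not tested. Every marker of the lists was detected, and 0 of the tested markers passed an adjusted p of 0.05 by edgeR. Their part in the results on miR-199 and miR-214 was not tested.

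The shared 3p sequence was recorded under 1 name or the other depending on the library. In 7 libraries at most 1.14% of its reads were named miR-199b-3p, and in the other 3 libraries 98.8% to 99.0% were. Those 3 were HFD plus L-NAME 5, control 1 and control 4. In HFD plus L-NAME 5 the name miR-199b-3p held 1987 of 2009 reads (98.9%, exact 95% interval 98.3% to 99.3%), whereas in HFD plus L-NAME 2 it held 0 of 1192, an upper exact limit of 0.309%. In control 1 it held 2451 of 2482 reads and in control 5 it held 1 of 798. The 3 libraries came from both groups, and within each library nearly all reads went to 1 name.

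With the names kept apart, edgeR's quasi-likelihood test gave miR-199a-3p a log2 difference of 1.01 ± 1.39 and miR-199b-3p one of -0.19 ± 2.32 between HFD plus L-NAME and control (SE, n = 5 each). As a sum, the standard error of miR-199-3p was 0.25. Names without a RefSeq mature sequence, such as miR-199b-5p, could not be compared with others. Among the deposited names that had one, 1 other pair was identical, let-7a-1-3p and let-7c-2-3p. There too the name changed between libraries, with at least 91.3% of reads under let-7a-1-3p in 5 libraries and at most 2.63% in the other 5. The naming followed other libraries, since 1 of the 3 libraries that used miR-199b-3p also used let-7a-1-3p. Which step set the names was not tested.

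**Figure D1:**
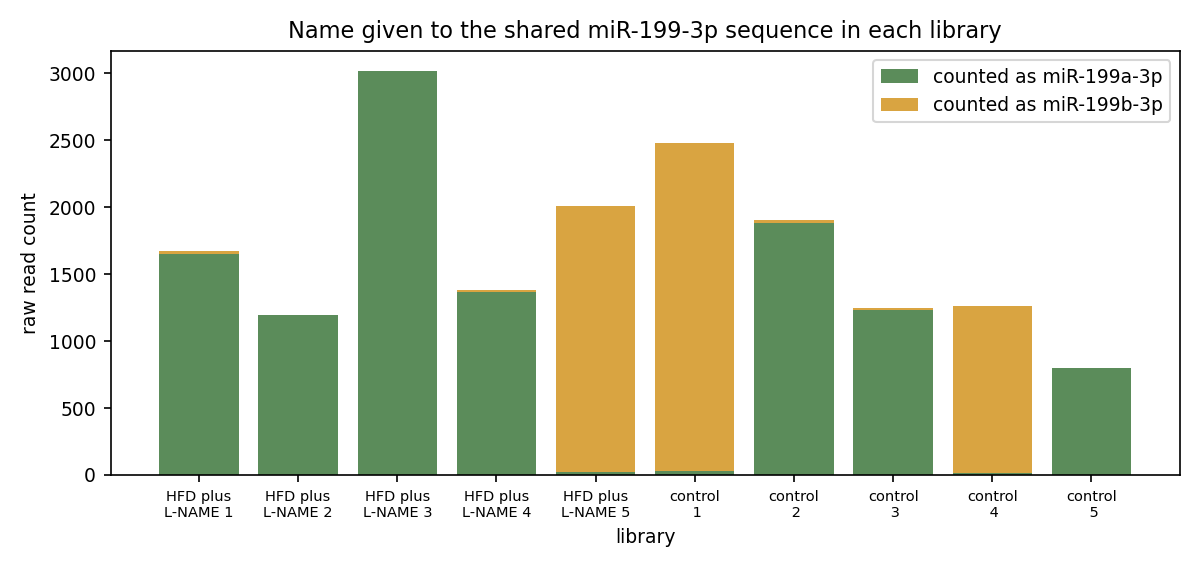
Raw read counts of the shared miR-199-3p sequence in each library, stacked by the name under which the authors' table lists them. HFD plus L-NAME 5, control 1 and control 4 are almost wholly miR-199b-3p and the other 7 libraries almost wholly miR-199a-3p.

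The family took a small part of the vesicle miRNAs. Its rows held 0.712% ± 0.290 of miRNA counts in HFD plus L-NAME and 0.470% ± 0.108 in control (SD, n = 5 each). In HFD plus L-NAME 1 to 5 the share was 0.683%, 0.453%, 1.12%, 0.434% and 0.872%, and in control 1 to 5 it was 0.651%, 0.484%, 0.429%, 0.398% and 0.388%. The libraries HFD plus L-NAME 1, 3 and 5 lay above every control library, and the other 2 lay among the controls. The difference of the means was 0.242 percentage points, and 0.140 without HFD plus L-NAME 3. The exact 95% intervals of these shares were narrow, for example 1.08% to 1.16% in HFD plus L-NAME 3 and 0.364% to 0.414% in control 5. If the authors' second value is RPM, of a read total whose extent is not stated, the family stood at 81.6 ± 23.2 in HFD plus L-NAME and 73.8 ± 31.3 in control. Of the reads of the family, miR-199-3p made up 91.1% to 94.8% in HFD plus L-NAME and 86.2% to 95.6% in control.

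By level miR-199-3p was therefore far above the other members, on the CPM scale and for mature sequences of 22 or 23 bases. The order by mean was miR-199-3p, miR-199b-5p, miR-199a-5p, miR-214-3p and miR-214-5p. In all 10 libraries miR-199-3p exceeded miR-199b-5p, with a median ratio of 22.1 in HFD plus L-NAME and 32.8 in control. The neighbours miR-199b-5p and miR-199a-5p were not in a fixed order, since miR-199b-5p was higher in 5 of 5 HFD plus L-NAME libraries and in 3 of 5 control libraries. In 9 of 10 libraries miR-199a-5p exceeded miR-214-3p, and in HFD plus L-NAME 3 it did not. In all 10 miR-214-3p exceeded miR-214-5p. Among the 176 miRNAs that passed edgeR's expression filter, miR-199-3p ranked 26 by mean CPM, miR-199b-5p 102, miR-199a-5p 114 and miR-214-3p 135. The 1 member that did not pass the filter was miR-214-5p.

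**Figure D2:**
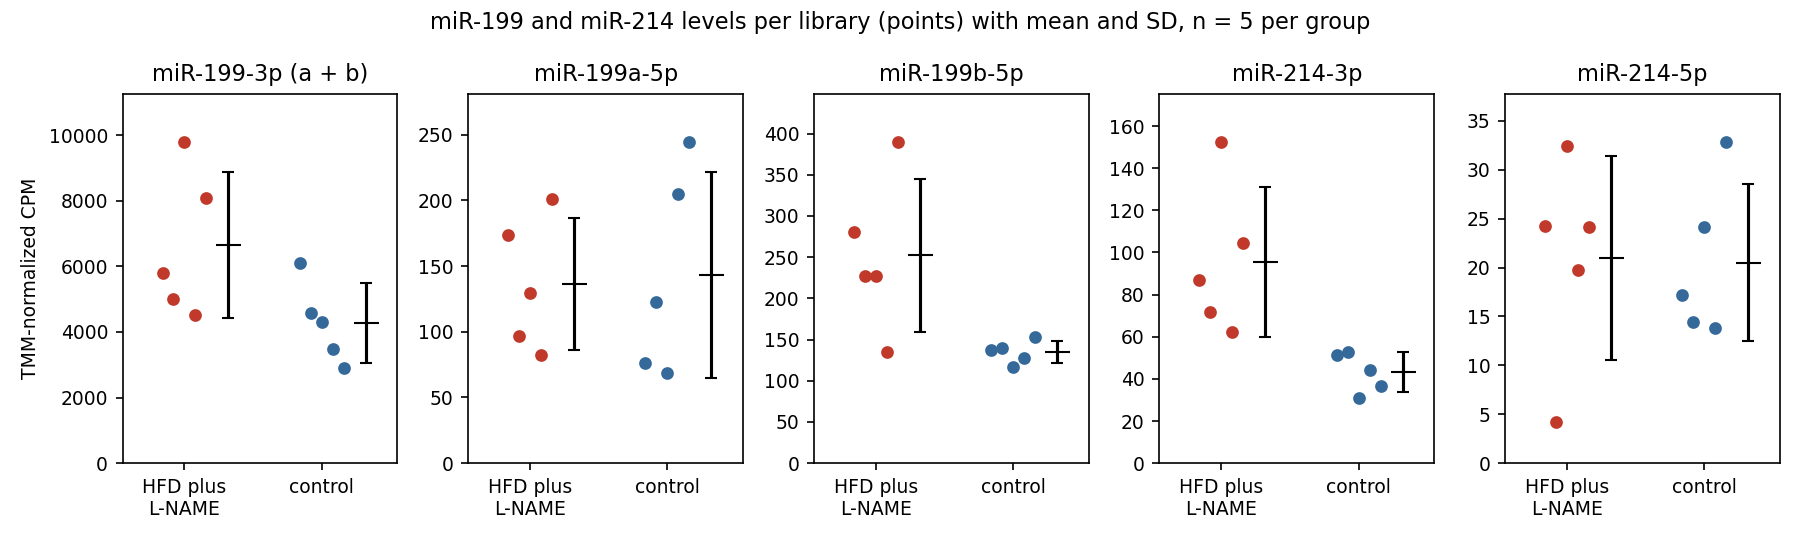
TMM-normalized CPM of each member in the 5 HFD plus L-NAME and 5 control libraries (points), with the mean and SD, on a separate axis from 0 for each member. The groups are apart for miR-214-3p (62.5 to 153 against 31.0 to 53.0 CPM) and overlap for the others.

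None of the members passed the test over all miRNAs. By edgeR's quasi-likelihood test with Benjamini-Hochberg adjustment 0 of 176 miRNAs (0%) passed an adjusted p of 0.05, and so 0 of the 4 tested members. At an unadjusted p under 0.05 edgeR gave 28 miRNAs, 15.9% of those tested, of which 15 were higher (8.52%) and 13 lower (7.39%). The split was 1 higher and 39 lower of 182 tested with read totals as library size, and 21 higher and 9 lower of 179 tested with miR-1a-3p removed. Of the 4 tested members 3 were among the higher ones, namely miR-214-3p, miR-199b-5p and miR-199-3p. The median log2 difference of the 4 was 0.77, beside 0.05 over all miRNAs tested. The 3 became 2 without HFD plus L-NAME 3 or control 5, 0 with read totals, and 1 without HFD plus L-NAME 5. Limma called 0 miRNAs, with 26 at an unadjusted p under 0.05. DESeq2's Wald test called 11 of the 70 miRNAs (15.7%) to which it gave an adjusted p, of which 0 were members. Its own filter on low means left miR-214-3p, miR-199b-5p and miR-199a-5p without an adjusted p.

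Of the 3p arms, miR-199-3p is known to promote proliferation of rodent cardiomyocytes when it is supplied. It had 5800, 5017, 9797, 4531 and 8080 CPM in HFD plus L-NAME 1 to 5, against 6088, 4576, 4289, 3484 and 2914 CPM in control 1 to 5. The libraries HFD plus L-NAME 3 and 5 lay above every control library and 3 control libraries lay below every HFD plus L-NAME library, while the others overlapped. The means were 6645 ± 2226 CPM in HFD plus L-NAME and 4270 ± 1210 CPM in control (SD, n = 5 each), a log2 difference of 0.64 ± 0.25 (SE) with an adjusted p of 0.183 by edgeR. Of all miRNAs tested 9.66% had a log2 difference at least as high. The unadjusted p of 0.0226 was 0.111 by edgeR without HFD plus L-NAME 3 and 0.111 without HFD plus L-NAME 5, with log2 differences of 0.40 and 0.46. With read totals as library size the log2 difference was 0.15 ± 0.32 (edgeR, unadjusted p = 0.648). In the assumed RPM miR-199-3p stood at 75.9 ± 22.3 in HFD plus L-NAME and 68.6 ± 31.1 in control, and 0 HFD plus L-NAME libraries lay above every control.

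From the Dnm3os transcript, miR-214-3p is known in mouse heart for repression of the sodium-calcium exchanger Slc8a1. It was recorded with 25, 17, 47, 19 and 26 counts in HFD plus L-NAME 1 to 5, against 21, 22, 9, 16 and 10 counts in control 1 to 5. As CPM these were 86.7, 71.6, 153, 62.5 and 105 in HFD plus L-NAME, against 51.5, 53.0, 31.0, 44.2 and 36.5 in control. Every HFD plus L-NAME library thus lay above every control library on the CPM scale, which 3.41% of all miRNAs tested did in that direction and 5.68% in either direction. The means were 95.6 ± 35.6 CPM in HFD plus L-NAME and 43.2 ± 9.48 CPM in control (SD, n = 5 each), a log2 difference of 1.13 ± 0.32 (SE) with an adjusted p of 0.141 by edgeR. Its unadjusted p of 0.00332 by edgeR ranked 2 among the 176 miRNAs tested. HFD plus L-NAME 3 was the highest library, and without it the log2 difference was 0.84.

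The separation of miR-214-3p depended on the scale. Raw counts overlapped, and in the assumed RPM miR-214-3p stood at 1.09 ± 0.378 in HFD plus L-NAME and 0.691 ± 0.272 in control, with 3 HFD plus L-NAME libraries above every control. With these read totals as library size, edgeR gave a log2 difference of 0.66 ± 0.38 for miR-214-3p and an adjusted p of 0.311. Of these read totals, miRNA counts made up only 0.980% in control 5 to 1.85% in control 1. By this percentage control 1, 2 and 4 lay above every HFD plus L-NAME library, control 5 below every one and control 3 among them. The part of this percentage in the results with read totals or assumed RPM was not tested. The median of all miRNAs tested was -0.37 with read totals as library size (182 miRNAs), against 0.05 with TMM (176 miRNAs). Relative to that median the log2 difference of miR-214-3p was 1.03 with read totals and 1.08 with TMM.

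The other arm of the same hairpin, miR-214-5p, was close to the limit of detection. It was recorded with 7, 1, 10, 6 and 6 counts in HFD plus L-NAME 1 to 5, against 7, 6, 7, 5 and 9 counts in control 1 to 5. The groups overlapped, at 21.0 ± 10.4 CPM in HFD plus L-NAME and 20.5 ± 8.03 CPM in control (SD, n = 5 each). Fitted without the filter, its log2 difference by edgeR was 0.09 ± 0.54 (SE). Summed over libraries, Mir214 gave 134 reads of the 3p and 30 of the 5p in HFD plus L-NAME, a ratio of 4.47, against 78 and 34 in control, a ratio of 2.29. The 3p was the more abundant arm in each of the 10 libraries, by as little as 9 to 7 in control 3 and 10 to 9 in control 5. With so few reads a difference of the arm ratio between groups was not tested.

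Of the 5p arms of miR-199, miR-199b-5p is known in mouse heart as a repressor of the kinase Dyrk1a in calcineurin and NFAT signalling, a route to hypertrophy. It had 281, 227, 227, 135 and 390 CPM in HFD plus L-NAME 1 to 5, against 137, 140, 117, 127 and 153 CPM in control 1 to 5. Of the HFD plus L-NAME libraries 4 lay above every control, and HFD plus L-NAME 4 lay among the controls. The means were 252.1 ± 93.4 CPM in HFD plus L-NAME and 135 ± 13.7 CPM in control (SD, n = 5 each), and the coefficient of variation was 37.0% in HFD plus L-NAME and 10.1% in control. The log2 difference was 0.90 ± 0.27 (SE) with an adjusted p of 0.141 by edgeR. It was 0.58 without HFD plus L-NAME 5 and 1.13 without HFD plus L-NAME 4, where the adjusted p by edgeR was 0.0899. With read totals as library size it was 0.45 ± 0.30 (edgeR, unadjusted p = 0.144). In the assumed RPM miR-199b-5p stood at 2.85 ± 0.879 in HFD plus L-NAME and 2.08 ± 0.450 in control, with 2 HFD plus L-NAME libraries above every control.

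Its near-identical partner miR-199a-5p, known in rat cardiomyocytes as a repressor of Hif1a and Sirt1, had overlapping values. They were 173, 96.8, 130, 82.2 and 201 CPM in HFD plus L-NAME 1 to 5, against 76.0, 123, 68.8, 205 and 245 CPM in control 1 to 5. The groups overlapped throughout, and the 2 highest libraries were control 5 and control 4. The means were 137 ± 50.3 CPM in HFD plus L-NAME and 143 ± 78.3 CPM in control (SD, n = 5 each), a log2 difference of -0.07 ± 0.38 (SE, edgeR, adjusted p = 0.922). The sign changed with the setting, and the value was 0.04 with miR-1a-3p removed from the table, 0.03 by limma and -0.44 with read totals. After seeing the data the 5p names were also summed into 1 row, where the log2 difference was 0.47 ± 0.31 and the adjusted p by edgeR 0.488.

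**Figure D3:**
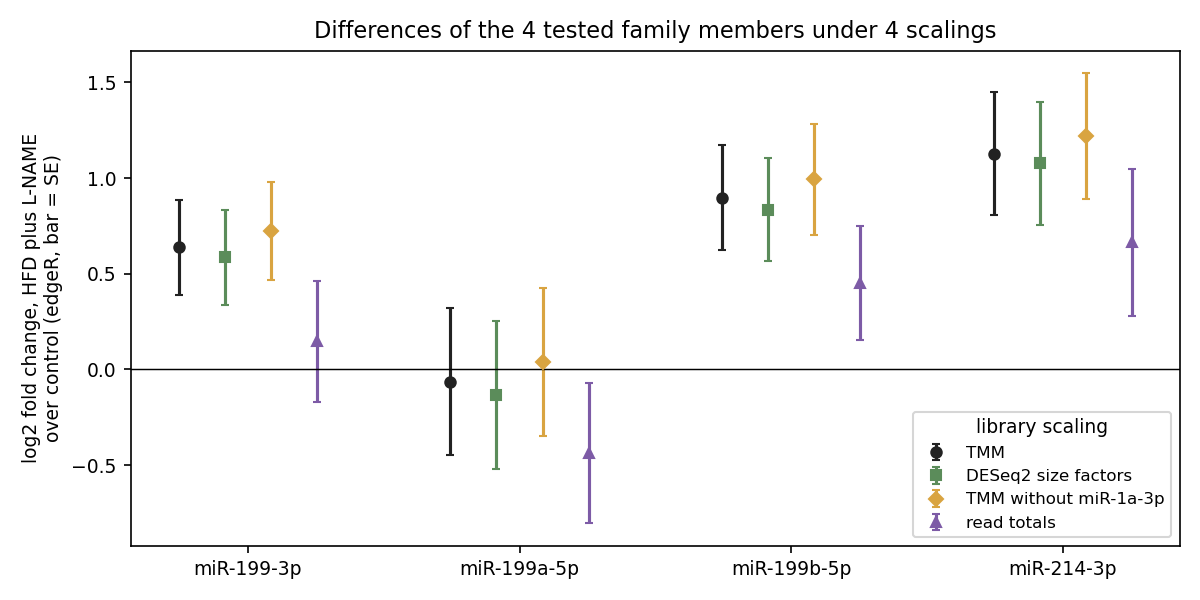
Log2 fold change of HFD plus L-NAME over control for the 4 tested members, by edgeR with 4 library scalings (bars are SE). With read totals every value is lower than with TMM (miR-214-3p 0.66 against 1.13), and miR-199a-5p lies on either side of 0.

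Ratios between members within a library need no library scaling, although the pseudocount of 1 added to both sides of a ratio weighs more where counts are low, and 3 were tested by exact two-sided permutation of the libraries between groups, with adjustment over the 3. They were chosen with earlier results on miR-214-3p and the 5p arms known, so they are not independent of those. The ratio of miR-199-3p to both 5p arms was 12.7, 15.3, 27.2, 20.6 and 13.6 in HFD plus L-NAME 1 to 5, against 28.2, 17.3, 22.7, 10.4 and 7.26 in control 1 to 5. The groups overlapped, with log2 ratios of 4.10 ± 0.46 in HFD plus L-NAME and 3.94 ± 0.81 in control (SD, n = 5 each). The difference was 0.16 (exact permutation p = 0.706, adjusted 0.706).

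The balance between the 5p names was then compared. The share of 5p reads named miR-199a-5p was 38.2%, 29.9%, 36.4%, 37.9% and 34.0% in HFD plus L-NAME 1 to 5, against 35.6%, 46.8%, 37.0%, 61.7% and 61.5% in control 1 to 5. Control 4 and control 5 stood apart from the other libraries at the high end, control 1 and control 3 lay within the range of HFD plus L-NAME, and control 2 lay between. The log2 ratio of miR-199a-5p to miR-199b-5p was -0.86 ± 0.21 in HFD plus L-NAME and -0.08 ± 0.73 in control (SD, n = 5 each), a difference of -0.78 (exact permutation p = 0.0714, adjusted 0.107). Leaving out control 1 gave -0.97 (exact permutation p = 0.0238, adjusted 0.0357) and leaving out control 3 gave -0.94 (exact permutation p = 0.0317, adjusted 0.0476). Without control 4 the difference was -0.59 (exact permutation p = 0.0873, adjusted 0.131). With any other library left out the adjusted p by the exact test was 0.107 to 0.179.

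The reads of miR-214-3p relative to all miR-199 reads were higher in HFD plus L-NAME. The log2 ratio was -6.12, -6.14, -6.03, -6.17 and -6.32 in HFD plus L-NAME 1 to 5, against -6.87, -6.45, -7.02, -6.34 and -6.37 in control 1 to 5. Every HFD plus L-NAME library lay above every control, narrowly so for HFD plus L-NAME 5 and control 4. The means were -6.16 ± 0.11 in HFD plus L-NAME and -6.61 ± 0.31 in control (SD, n = 5 each), a difference of 0.45 (exact permutation p = 0.00794, the smallest that 5 against 5 allows, adjusted 0.0238). The call was lost with a pseudocount of 5 in place of 1 (difference 0.33, exact permutation p = 0.0556, adjusted 0.0952). Without any 1 HFD plus L-NAME library the adjusted p was 0.0714 to 0.0952 by the exact test, with differences of 0.42 to 0.50.

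**Figure D4:**
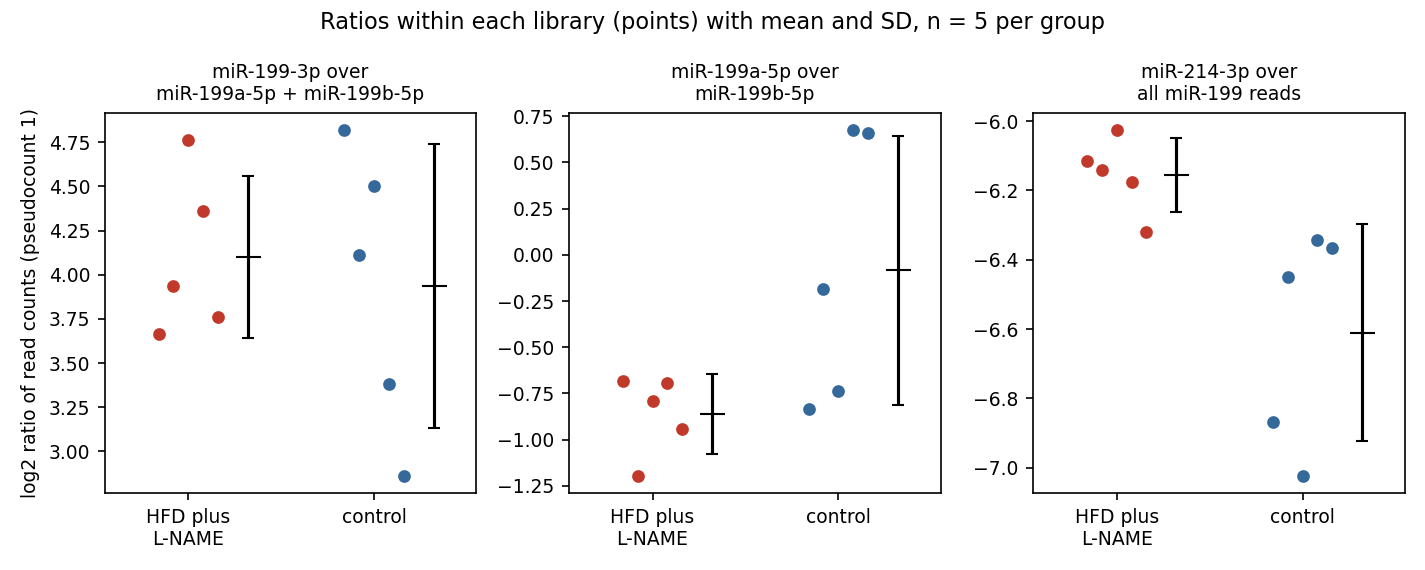
Log2 ratios of read counts within each of the 5 HFD plus L-NAME and 5 control libraries (points), with mean and SD, on axes that do not start at 0. In the right panel the HFD plus L-NAME libraries (-6.32 to -6.03) lie above the control libraries (-7.02 to -6.34), and in the other panels the groups overlap.

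Within the 7 libraries that used the name miR-199a-3p (4 HFD plus L-NAME and 3 control), a split seen in the data, the log2 differences by edgeR were 1.12 ± 0.46 for miR-214-3p, 0.61 ± 0.31 for miR-199-3p, 0.58 ± 0.35 for miR-199b-5p and -0.36 ± 0.47 for miR-199a-5p (SE). The smallest adjusted p of these members by edgeR was 0.462. The 3 libraries that used miR-199b-3p held 1 HFD plus L-NAME library, too few for a value.

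Across libraries, after removal of each group's mean, 6 pairs of members were compared by exact permutation within groups, on log2 CPM values that share each library's depth and scaling. The values of miR-199-3p and miR-214-3p had a Pearson r of 0.81 (exact permutation p = 0.0103, adjusted 0.0308) and a Spearman rho of 0.78 (exact permutation p = 0.0179, adjusted 0.108). Without HFD plus L-NAME 3 and control 1 that r was 0.65. For the 2 names of the 5p arm r was 0.61 (exact permutation p = 0.00889, adjusted 0.0308) and rho 0.53 (exact permutation p = 0.0994, adjusted 0.298), and r was 0.62 without control 3 and control 5. The other 4 pairs had r of -0.20 to 0.44 and adjusted p of 0.542 to 0.587 by the exact test. The 2 arms miR-199-3p and miR-199a-5p were the pair with the negative r.

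Among the 172 tested miRNAs outside the family, those most like miR-214-3p by the same r were miR-574-3p (r = 0.82, rho = 0.81), miR-361-5p (r = 0.82, rho = 0.78) and miR-1839-5p (r = 0.76, rho = 0.87). Those most like miR-199-3p were miR-361-5p (r = 0.75, rho = 0.81), miR-410-3p (r = 0.75, rho = 0.68) and miR-151-3p (r = 0.73, rho = 0.73). Their unadjusted exact permutation p lay between 0.00910 and 0.0335 for r and between 0.00375 and 0.0549 for rho, which was not adjusted. Adjusted over the 172, the p for r was 0.821 for the first 3 and 0.528 for the others, so this order of likeness is a description. Without the 2 libraries farthest from the median of the member, r of these miRNAs was 0.55 to 0.89.

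A list of 14 other miRNAs known from fibroblasts, smooth muscle or fibrosis had values on either side of 0. It includes both smooth muscle markers. All 14 were tested and 0 passed an adjusted p of 0.05 by edgeR. In HFD plus L-NAME 9 had higher values and 5 lower ones (53.4% of all miRNAs tested were higher). Their median log2 difference was 0.19, beside 0.05 over all miRNAs tested. The 4 most abundant were miR-143-3p of smooth muscle (-0.49 ± 0.18), the p53 target miR-34a-5p (-0.25 ± 0.21), miR-145a-5p of smooth muscle (0.25 ± 0.21) and miR-218-5p (0.05 ± 0.25), as log2 differences with SE. At an unadjusted p under 0.05 by edgeR 2 of the 14 were higher and 2 lower, beside 8.52% and 7.39% of all miRNAs tested. Named after their values were seen, the higher ones were miR-335-5p (1.34 ± 0.41) and miR-29a-3p (0.62 ± 0.20). The lower ones were miR-125b-5p (-0.71 ± 0.21) and miR-143-3p.

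**Figure D5:**
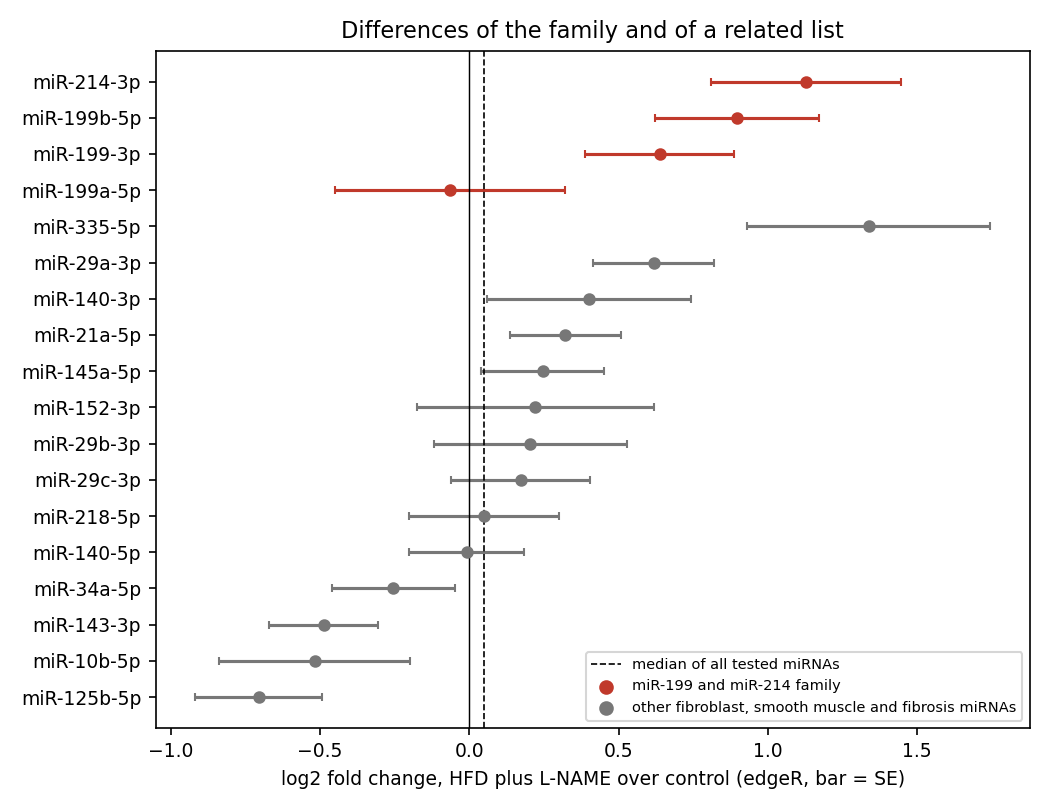
Log2 fold change of HFD plus L-NAME over control with SE for the 4 tested members (red) and 14 related miRNAs (grey), with the median of all 176 tested miRNAs as a dashed line at 0.05. Values for the related list run from -0.71 to 1.34, on either side of 0.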

How the data were processed

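The deposited table held raw read counts per mature miRNA, made by the authors from small RNA libraries on GRCm38.p6, per the submitters' processing notes. The sources used here do not give the aligner, the counter or how reads matching several names were treated. A second deposited value per count was assumed to be RPM, since dividing each count by it gave 1 constant per library, namely read totals of 21563706 to 27493796. The authors' group averages of counts, a deposited signal value, and of RPM were not used.

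The names miR-199a-3p and miR-199b-3p were summed, which left 732 rows. These went into edgeR 4.0.16 (TMM, default expression filter, robust quasi-likelihood, R 4.3.3) at an adjusted p of 0.05. The filter kept 176 rows with 99.7% of counts, and only those were tested. SE is the log2 difference divided by the square root of F, and correlations took log2 CPM with prior count 2. Alternatives used DESeq2 1.42.0 and limma 3.58.1. Ratios used a pseudocount of 1, and permutation tests were exact, over all arrangements of the libraries, or 14400 within groups. Python 3.11.15, pandas 2.3.3, NumPy 2.4.6, SciPy 1.17.1 and matplotlib 3.10.9 were used. Groups follow the treatment labels, and replicate numbers follow accession order.

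Members, ratios and lists were chosen with earlier results of these data known. Named were all members, the 3 miRNAs most like miR-214-3p and miR-199-3p, the 4 most abundant of the related list, and miR-1a-3p.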

Additional observations from a re-analysis of the deposited data

How the results depend on the processing

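No paired analysis was possible because the labels give the groups no shared replicate numbers. The count of miRNAs called by edgeR was 0, but 11 with DESeq2's Wald test, 1 without the expression filter (miR-200c-3p), and 0 to 1 with a library left out (the 1 being miR-148a-3p without control 1, both named after their values were seen). None of the members passed an adjusted p of 0.05 under any alternative that gave one. DESeq2 gave none to miR-214-3p, miR-199b-5p or miR-199a-5p, with log2 differences of 1.08, 0.83 and -0.13. With a library left out, log2 differences ran from 0.84 to 1.32 for miR-214-3p, 0.58 to 1.13 for miR-199b-5p, 0.40 to 0.82 for miR-199-3p and -0.35 to 0.20 for miR-199a-5p. Over the other alternatives the ranges were 0.66 to 1.22, 0.45 to 0.99, 0.15 to 0.72 and -0.44 to 0.04. The sign of miR-199a-5p turned with limma (0.0263) and with miR-1a-3p removed (0.0377). It also turned without HFD plus L-NAME 2 or 4 and without control 4 or 5. The difference in family share was 0.242 percentage points, and 0.140 to 0.311 with a library left out. It was 0.459 with miR-1a-3p removed from the total and 0.000789 with read totals as denominator. Both of these have another denominator, so their sizes cannot be compared with 0.242. The means in HFD plus L-NAME and control were 1.08% and 0.624% without miR-1a-3p, and 81.6 and 73.8 in the assumed RPM. With a library left out the log2 ratio difference ran from -0.11 to 0.38 for the arms of miR-199, from -0.97 to -0.59 for the 5p names and from 0.35 to 0.52 for miR-214-3p over miR-199. The arm ratio turned sign without HFD plus L-NAME 3 (-0.0037) or control 5. A pseudocount of 5 gave 0.33 for miR-214-3p over miR-199 (exact permutation adjusted p = 0.0952). The cause of these changes was not tested. Counts of 9 to 47 for miR-214-3p and 1 to 10 for miR-214-5p limit their precision.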
